A study of Mus musculus with 3 samples.

Results

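The 144 regions described here are places where TFAP2A peaks crowd together along a chromosome of mouse melanocytes. They were chosen by the measured positions of the peaks. A replicate 1 peak counted as shared if 1 bp or more of it was also covered by a peak of replicate 2, neighbouring shared summits at most 12500 bp apart were joined into a chain, and every chain of 5 or more summits was called a cluster. Of the 15797 shared peaks on chromosomes 1 to 19, 828 (5.24%) belonged to a cluster, and 8866 had no other shared summit within 12500 bp and are called lone peaks. The remaining 3700 peaks lay in chains of 2, and 2403 in chains of 3 or 4. The number of summits, the gaps between them and the total length are therefore what selected the clusters, and are given below as a description only.

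TFAP2A was mapped by chromatin immunoprecipitation and sequencing (ChIP-seq) in melan-a, a single immortalized melanocyte line from normal embryonic mouse skin that carries the Cdkn2a tm1RDp/tm1RDp genotype. The 2 ChIP libraries, replicates 1 and 2, were made with the AP-2alpha antibody 3B5 from untreated cells kept in medium with a phorbol ester and cholera toxin, and the other library was input chromatin made without antibody. All 3 libraries shared this line and genotype, so the data hold no second condition and no second line. The labels do not say whether the replicates came from separate cultures, and their spread may be technical. The 2 peak lists hold no read counts, so depth is unknown and the strength of a peak is given as its fold enrichment over background, a ratio set by the peak caller.

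TFAP2A is a member of the AP-2 family of transcription factors, which act as dimers on a GC-rich palindrome and are needed in the neural crest and its pigment cell descendants. Regions where a factor occupies many neighbouring elements often lie at genes that shape the identity of a cell, and large groups of active elements of this kind are known as super-enhancers. Peaks of a ChIP-seq experiment give occupancy and carry no information on the activity of a region or on the gene it acts upon.

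Sequences at the summits of the strongest clusters are printed first, because they show how differently the members of a cluster relate to the TFAP2 site. Each is the plus strand of mm9, 5′ to 3′, from 50 bp before to 50 bp after the replicate 1 summit, and capitals mark a stretch that matches GCCNNNGG on either strand, matches that overlap being 1 stretch. In the cluster at Gm9930, peak 1 lay at chr10:9209041-9209141, peak 2 at chr10:9216993-9217093, peak 5 at chr10:9240323-9240423 and peak 8 at chr10:9258721-9258821. The strongest members of 4 further clusters were at chr10:52654600-52654700 (Slc35f1), chr2:90349503-90349603 (Ptprj), chr11:60107916-60108016 (Tom1l2) and chr19:20488157-20488257 (Anxa1).
Gm9930 peak 1: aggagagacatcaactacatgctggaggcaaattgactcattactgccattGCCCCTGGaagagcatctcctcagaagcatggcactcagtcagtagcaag
Gm9930 peak 2: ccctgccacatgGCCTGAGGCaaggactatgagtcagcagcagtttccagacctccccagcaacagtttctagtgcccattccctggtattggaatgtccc
Gm9930 peak 5: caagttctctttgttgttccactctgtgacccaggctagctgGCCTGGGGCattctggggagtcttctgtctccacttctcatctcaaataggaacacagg
Gm9930 peak 8: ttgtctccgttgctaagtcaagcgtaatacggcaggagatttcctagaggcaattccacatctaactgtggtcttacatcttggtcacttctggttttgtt
Slc35f1 peak 3: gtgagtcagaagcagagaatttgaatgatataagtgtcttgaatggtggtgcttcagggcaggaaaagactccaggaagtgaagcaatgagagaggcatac
Ptprj peak 9: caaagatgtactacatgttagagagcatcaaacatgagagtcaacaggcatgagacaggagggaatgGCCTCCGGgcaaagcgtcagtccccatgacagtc
Tom1l2 peak 4: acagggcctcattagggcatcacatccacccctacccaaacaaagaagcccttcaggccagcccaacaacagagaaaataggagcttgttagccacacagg
Anxa1 peak 5: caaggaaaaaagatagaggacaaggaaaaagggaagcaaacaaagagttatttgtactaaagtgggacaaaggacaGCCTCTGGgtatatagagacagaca

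Of these 8 windows, 5 hold 1 stretch each. The strongest clustered peak of all, peak 3 in Slc35f1, holds 0, as do Gm9930 peak 8 and Tom1l2 peak 4. Gm9930 peaks 1 and 2 and Slc35f1 peak 3 each also hold 1 AP-1 site, here TGACTCA or TGAGTCA.

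Strongest members at 5 regulators of transcription are printed next, because these are genes of the neural crest, melanocyte and AP-1 lists that a cluster overlapped. They lay at chr15:78995805-78995905 (Sox10), chr12:25782190-25782290 (Id2), chr4:135696369-135696469 (Id3), chr9:32475814-32475914 (Ets1) and chr8:87505076-87505176 (Junb), with build, strand and capitals as above.
Sox10 peak 3: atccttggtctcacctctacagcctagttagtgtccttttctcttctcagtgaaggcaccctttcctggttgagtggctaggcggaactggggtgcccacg
Id2 peak 4: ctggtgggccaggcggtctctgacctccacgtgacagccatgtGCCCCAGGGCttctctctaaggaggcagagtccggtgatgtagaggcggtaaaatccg
Id3 peak 1: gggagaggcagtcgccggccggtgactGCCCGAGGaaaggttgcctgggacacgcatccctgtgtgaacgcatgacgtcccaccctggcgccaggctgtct
Ets1 peak 1: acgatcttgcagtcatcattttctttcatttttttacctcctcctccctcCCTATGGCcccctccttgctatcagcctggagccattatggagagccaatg
Junb peak 6: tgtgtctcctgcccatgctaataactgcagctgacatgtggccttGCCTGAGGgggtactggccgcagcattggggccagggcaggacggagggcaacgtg

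Id2, Id3, Ets1 and Junb each showed 1 stretch within 50 bp of the replicate 1 summit, whereas the Sox10 window held 0. The replicate 2 summit at Sox10 lay 19 bp away, and the window around it held 1 stretch, so that the presence of a site close to the limit of the window changed with the replicate.

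The clusters were found on all 19 chromosomes. Most were small, with 90 holding 5 summits, 25 holding 6, 16 holding 7, and 13 holding between 8 and 12. Their first and last summits were 21.0 kb apart in the median, with quartiles of 15.7 and 28.4 kb and extremes of 3.96 and 58.8 kb. The spans summed to 3.23 Mb, 0.130% of the 19 chromosomes. Within clusters the 684 gaps between neighbouring summits had a median of 3772 bp, against 41514 bp for all neighbouring shared summits. The largest gap inside a cluster was 12404 bp, and the smallest gap that broke a chain was 12503 bp. On the other side of the second limit lay 204 chains of 4 summits, whose median fold enrichment was 5.81 in replicate 1 and 6.20 in replicate 2, next to 5.62 and 6.17 for the 90 chains of 5. The share of shared peaks that were clustered was 9.04% on chromosome 19 and 8.38% on chromosome 15, and lowest on chromosome 13 with 1.43%.

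**Figure D1:**
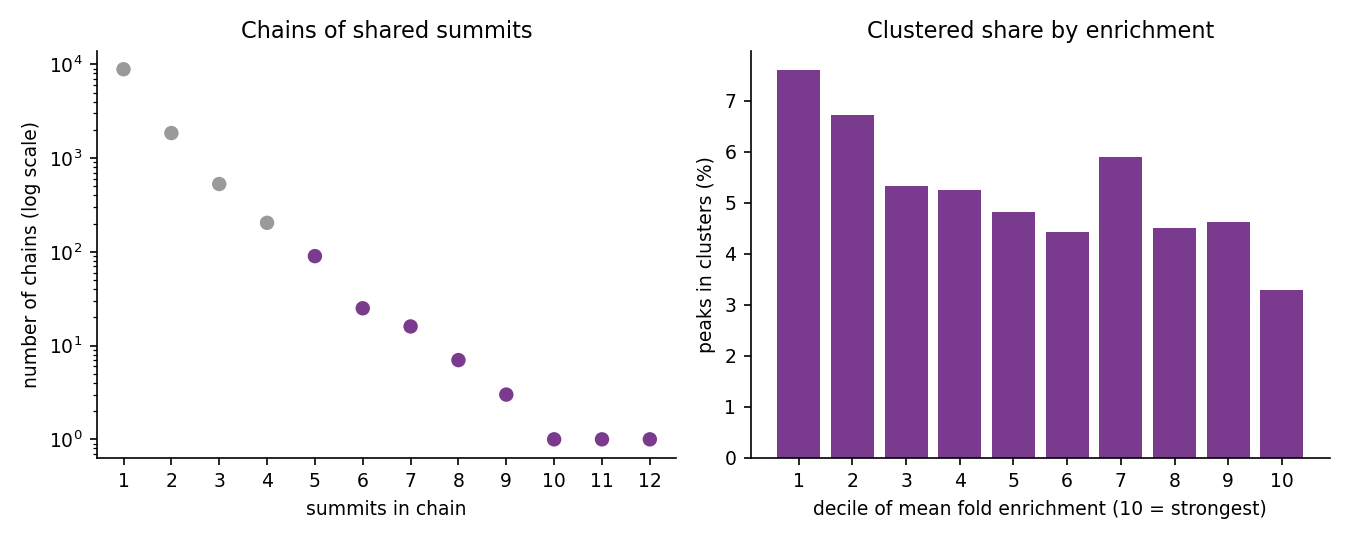
Left, number of chains (log scale) against the number of summits in the chain, with clusters in purple; 90 chains had 5 summits and 1 had 12. Right, percentage of shared peaks that were clustered in each decile of fold enrichment (mean of the replicates), which was 7.59% in the weakest decile and 3.29% in the strongest.

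The cluster with the highest enrichment lay around Gm9930, a predicted protein-coding gene, on chromosome 10 from 9208791 to 9268136. Its 9 peaks summed to a fold enrichment of 123.1 in replicate 1 and 134.9 in replicate 2, above every other cluster in both replicates. It was also the longest cluster, with 58.8 kb between the first and last summit. Peaks 2, 8 and 1 stood out, at 30.8 and 32.7, 23.8 and 28.6, and 23.0 and 22.9 in the respective replicates, while peak 5 reached 12.8 ± 0.448 (mean ± SD, n = 2 replicates here and below). The other 5 members lay between 5.35 and 10.0. Of the 9 summits, 1 was in a promoter, here 5 kb upstream to 1 kb downstream of any transcription start site (TSS), 1 in an exon and 7 outside genes. Locations count every annotated transcript, internal starts and non-coding transcripts included. Peak 8, at -3292 bp from the Gm9930 TSS, was the promoter peak.

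Slc35f1, an orphan member of the solute carrier family, held the single strongest clustered peak. That peak, in an intron of the gene, reached 36.9 in replicate 1 and 37.4 in replicate 2. Its 5 neighbours ranged from 4.17 to 12.9, so the cluster of 6 summits summed to 73.8 ± 4.85. Anxa1, which encodes the phospholipid-binding protein annexin A1, had a similar shape, with a peak of 21.7 and 25.3 at -22773 bp from the TSS and 4 weaker peaks of 3.65 to 15.0 that reached into the promoter. The cluster in Nav3, neuron navigator 3, differed in that its strongest peak, with 18.6 and 14.4, sat at -57 bp from the start of a shorter annotated transcript inside the gene. Its 6 members lay between 4.56 and 18.6 and summed to 60.8 ± 1.52.

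Ptprj, a receptor-type protein tyrosine phosphatase, carried 9 summits over 39.1 kb, summing to 70.9 ± 2.75. An intronic pair stood above the rest in both replicates, peak 9 with 19.1 and 19.7 and peak 4 with 16.5 and 16.7. The other 7 ranged from 3.62 to 8.46, and in replicate 1 the 3 promoter summits were the weakest peaks of the cluster. Tom1l2, a gene of endosomal trafficking, had 8 summits, all in introns. Peak 4 was at 22.6 and 17.6, peak 8 at 16.2 and 12.1, and the remaining 6 lay between 3.65 and 8.84. In both of these clusters 2 strong peaks were accompanied by several weaker ones.

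**Figure D2:**
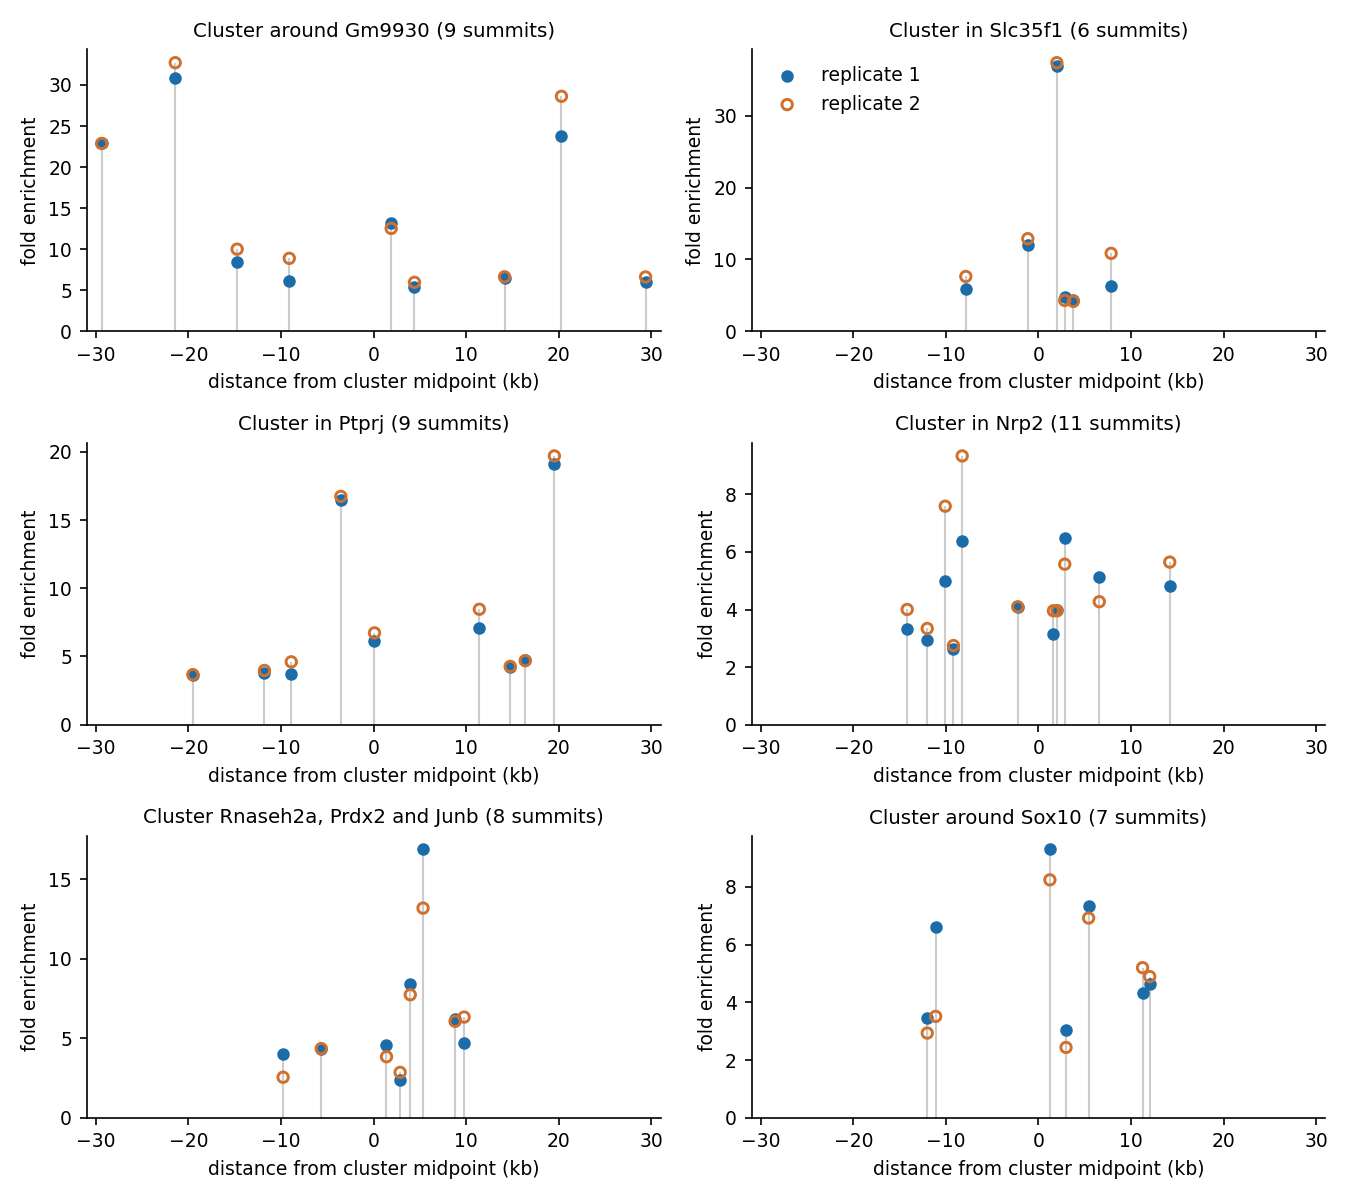
Fold enrichment of each member peak (vertical axis, from 0) against the distance of its summit from the midpoint of the cluster in kb, for 6 clusters, with replicate 1 as filled blue points and replicate 2 as open orange points. The Slc35f1 cluster has 1 peak at 36.9 and 37.4 and 5 peaks at or below 12.9, whereas the members of the Nrp2 cluster all lie between 2.63 and 9.34.

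Other clusters were rich in summits. Nrp2, which encodes a receptor for semaphorins and vascular endothelial growth factors, had 11 summits over 28.4 kb, 2 in its promoter and 9 in introns. Its members ranged from 2.63 to 9.34, and their sum was 49.3 ± 1.82. Lmna, the gene of the nuclear lamins A and C, had 10 summits over 49.1 kb, 6 of them in promoters, and its members ranged from 3.40 to 10.4. Plec, which encodes the cytoskeletal linker plectin, had 9 summits over 39.2 kb, over a span that also reached Parp10, and 8 of them lay in promoters of its annotated transcripts. Its strongest peak reached 12.8 and 11.5. The 8 summits near Irf2bp2, a transcriptional co-regulator, lay outside genes apart from 1 promoter summit, and the strongest was at 17.1 and 18.4. Further clusters of 8 summits lay upstream of Gpc1 (45.8 ± 0.762 in sum), at Cdc42ep1 and Lgals2 (44.1 ± 0.657) and at Polm and Aebp1 (42.5 ± 1.51). Their strongest members reached 9.80 ± 1.28, 8.69 ± 0.984 and 11.3 ± 1.92.

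Apart from a cluster in repeated DNA that is described below, the 4 tightest clusters were mainly made of promoter summits. The 5 summits at Rnf149, a RING finger gene, lay within 3.96 kb, and those at Dnaic2, Tenc1 and Id2 within 5.36, 6.02 and 6.50 kb. All 5 summits at Rnf149 and all 5 at Dnaic2 were in promoters, as were 4 at Tenc1 and 3 at Id2. At Rnf149, 2 of the replicate 1 summits shared 1 replicate 2 peak, which was 7.34 against 3.82 and 3.30 in replicate 1, and the summed enrichment was 36.1 in replicate 1 and 51.5 in replicate 2. Counted on replicate 2 summits, Rnf149 was not a cluster. The difference of its sums was larger than at Dnaic2, 32.6 and 30.9, or Tenc1, 22.2 and 23.9.

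Across the 144 clusters, the median of the summed enrichment was 34.7 for replicate 1 and 36.0 for replicate 2. The strongest member of a cluster was 2.87-fold above the weakest in the median, with extremes of 1.35 and 8.66, and held 29.8% of the summed enrichment. It was the same peak in both replicates in 107 clusters (74.3%). In 53 clusters (36.8%) it was the first or last peak, and these end positions made up 36.0% of the peaks of a cluster, averaged over clusters. Belonging to the same cluster said little about strength. The intraclass correlation of log2 enrichment, its share of variance between clusters, came to 0.0248 (replicate 1) and 0.0742 (replicate 2), and the SD within clusters, 0.69 and 0.65 on the log2 scale, was close to that over lone peaks, 0.74 and 0.71.

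**Figure D3:**
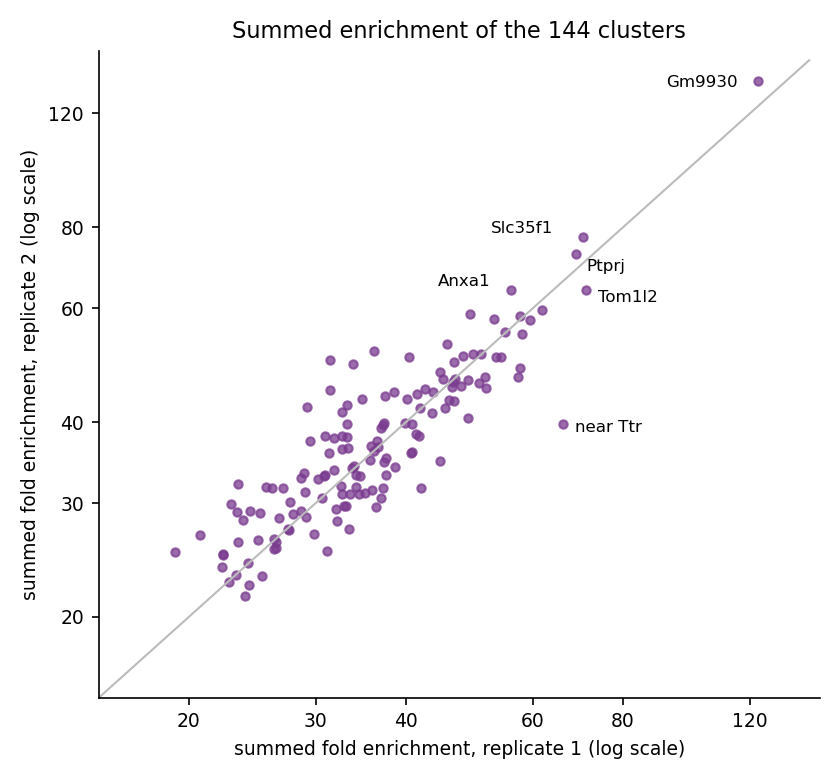
Summed fold enrichment of each of the 144 clusters in replicate 1 and replicate 2 (both axes on log scales), with the line of equal values in grey. The Gm9930 cluster is highest with 123.1 and 134.9, and the cluster near Ttr lies furthest below the line on the right, with 66.0 and 39.8.

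Clustered peaks were somewhat weaker than lone ones. Median fold enrichment stood at 5.37 (replicate 1) and 6.04 (replicate 2) in clusters, against 6.09 and 6.58 for lone peaks, and 6.02 ± 0.306 was the mean over replicates for chains of 3 or 4. The means were 5.71 ± 0.477 and 6.34 ± 0.342, and the ratio of 0.900 ± 0.0267 was below 1 in both replicates. Both clustered values lay below both lone values (-0.15 ± 0.043 on the log2 scale, exact two-sided permutation test over the 4 replicate values, p = 0.333, the smallest that 2 against 2 allows). Ordered by enrichment, 7.59% of the weakest and 3.29% of the strongest decile of shared peaks were clustered. In promoters the classes were level, at 5.14 ± 0.288 and 5.19 ± 0.301, and the lower enrichment was found in introns (5.95 ± 0.467 against 6.67 ± 0.410) and outside genes (5.95 ± 0.349 against 6.97 ± 0.300). The caller's -log10 p gave the other order, with a median of 29.2 ± 1.51 in clusters, 29.4 ± 1.45 in chains of 3 or 4 and 26.7 ± 1.16 at lone peaks. Clustered peaks were wider than lone peaks within each replicate, at 462 ± 40.7 bp against 414 ± 33.9 bp. Chains of 3 or 4 were close to clusters in width, at 454.5 ± 44.5 bp. The replicate widths of clustered and lone peaks overlapped (exact two-sided permutation test over the 4 replicate values, p = 0.667).

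Compared with lone peaks, clustered peaks were more often 1 to 20 kb from a TSS and less often closer or farther. Members of a cluster are neighbours by the rule, so their distances from a TSS are tied to each other. How far this spacing sets the shape was not tested, and the distances are a description. Summits 1 to 5 kb from the nearest TSS made up 24.3 ± 0.171% of clustered and 14.2 ± 0.0638% of lone peaks, and those at 5 to 20 kb 34.1 ± 0% and 26.1 ± 0.0638%. Within 1 kb of a TSS the order was turned, with 16.7 ± 0.256% and 19.7 ± 0.0399%. Few clustered peaks were 100 kb or more away, 3.62% against 9.05% of lone peaks. Both replicates score the same loci, since a replicate 2 value comes from the overlapping peak, so the small SDs of locations and base composition are set by the selection and are no replicate support, which also limits the values at sites below. The promoter share was 31.3 ± 0.171% in clusters and 27.7 ± 0.0399% at lone peaks, a difference whose direction turned with a promoter of 1 kb to each side and under other alternatives given in the closing section. Introns held 40.5% and 36.1%, exons 1.63% and 2.00%, and the space outside genes 26.6% and 34.2%. The classes also differed in base composition. Median GC content was 51.1% for clustered and 46.7% for lone peaks, yet fewer clustered peaks were CpG-rich, 7.73 ± 0.171% against 12.9 ± 0.0319% (GC of at least 50% and an observed over expected CpG ratio of at least 0.6 within 250 bp of the summit). Chains of 3 or 4 were similar to clusters in several of these values, with 17.0 ± 0.206% of summits under 1 kb from a TSS, 41.3% in introns and 8.47 ± 0.0883% CpG-rich. At 1 to 5 kb, with 20.9 ± 0.0589%, and in GC content, with 48.7%, they lay between lone peaks and clusters.

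**Figure D4:**
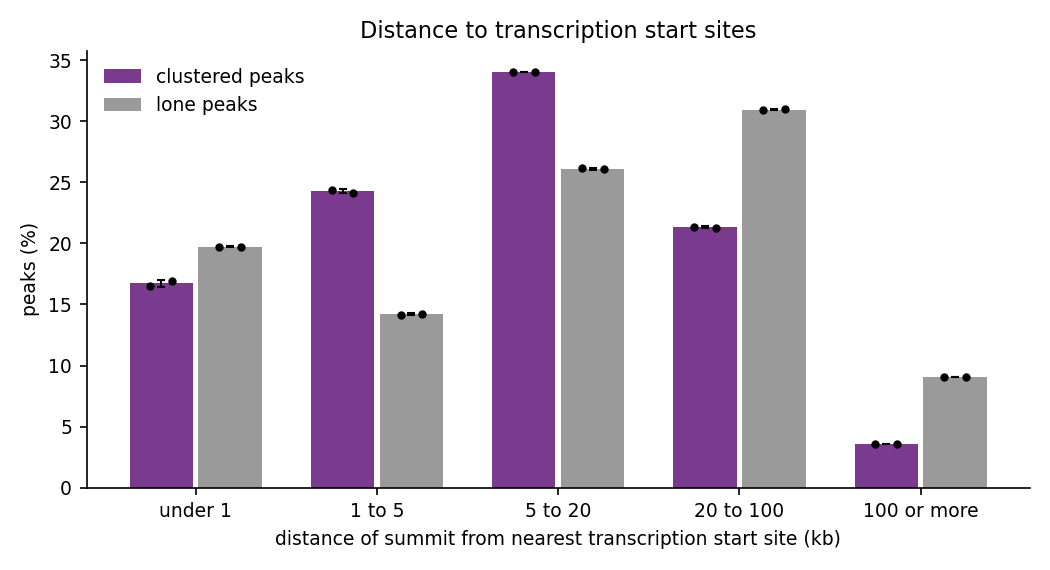
Percentage of clustered (purple) and lone (grey) peaks whose summit lay at each distance from the nearest transcription start site, in kb. Bars are means, error bars SD and points the 2 replicates; clustered peaks exceed lone peaks at 1 to 5 kb (24.3% and 14.2%) and fall below them under 1 kb and beyond 20 kb.

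A TFAP2 site within 50 bp of the summit was found at most clustered and most lone summits. The share was 58.9% in replicate 1 and 62.1% in replicate 2, against 57.5% and 61.0% of lone peaks, and clusters were higher in both replicates, by 1.48 and 1.11 percentage points (1.30 ± 0.260). The class values were 60.5 ± 2.22% and 59.2 ± 2.48% and overlapped (exact two-sided permutation test over the 4 replicate values, p = 0.667), and the direction of the difference turned under alternatives given in the closing section. At 400 bp to each side of the summit, windows of the same length held a site more often in clusters, 19.7 ± 0.213% against 14.7 ± 0.0798%, in the same direction as GC content, whose part in this was not tested. Some flanks lie close to a neighbouring summit. With the peaks that had another summit within 500 bp and those of the repeat cluster described below left out, 798 clustered peaks had a site in 17.8% and 18.2% of flanks in the respective replicates, still above both lone values. Summits with 2 or more stretches made up 14.5 ± 1.20% of clustered and 10.6 ± 0.654% of lone peaks. Without the repeat cluster the clustered share was 13.2 ± 1.21% of 816 peaks. In promoters the site share was lower in clusters than at lone peaks, 61.6 ± 1.57% and 67.5 ± 3.10%, and outside genes it was higher, 62.6 ± 0.201% and 55.7 ± 2.44% (exact permutation p = 0.333 for both).

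The strongest member of a cluster carried a site more often than the others did. Of the 144 strongest members, 69.1 ± 0.491% had one, against 58.7 ± 2.79% of the other 684 and 55.2 ± 3.44% of the weakest members, and no test was made on this split by enrichment. With all shared peaks divided into 3 equal groups by enrichment, the share among clustered peaks was 56.2 ± 1.67%, 61.5 ± 4.80% and 65.8 ± 0% from the weakest to the strongest, whereas among lone peaks it was 60.2 ± 3.11%, 56.4 ± 2.13% and 61.0 ± 2.27%. Sites for other factors were rarer, but the words differ in length and letters, so these shares do not rank the factors. AP-1 sites were found at 5.74 ± 0.598% of clustered and 6.39 ± 0.0718% of lone summits, TEAD sites (GGAATG) at 9.48 ± 0.427% and 10.3 ± 0.303%, and SOX sites (ACAATGG or ACAAAGG) at 4.35 ± 0.512% and 5.34 ± 0.199%. The M-box TCATGTG and the E-box CACGTG, both bound by MITF and related factors, were at 1.57% and 1.75 ± 0.256% of clustered summits, against 1.99% and 1.87 ± 0.0957%. A scrambled form of the TFAP2 site, CGGNNNCG, was at 5.13 ± 0.598% and 6.29 ± 0.0399%. In the flanks of clustered peaks the shares were 1.63% for AP-1, 5.83% for TEAD and 2.87% for SOX. They were 1.27% for the M-box, 1.27% for the E-box and 3.29% for the scrambled form, beside 19.7% for TFAP2. Lone flanks held 1.80%, 5.40%, 3.32%, 1.81%, 1.37%, 4.11% and 14.7% in the same order. A match is a description of the letters and not evidence that a factor was bound.

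**Figure D5:**
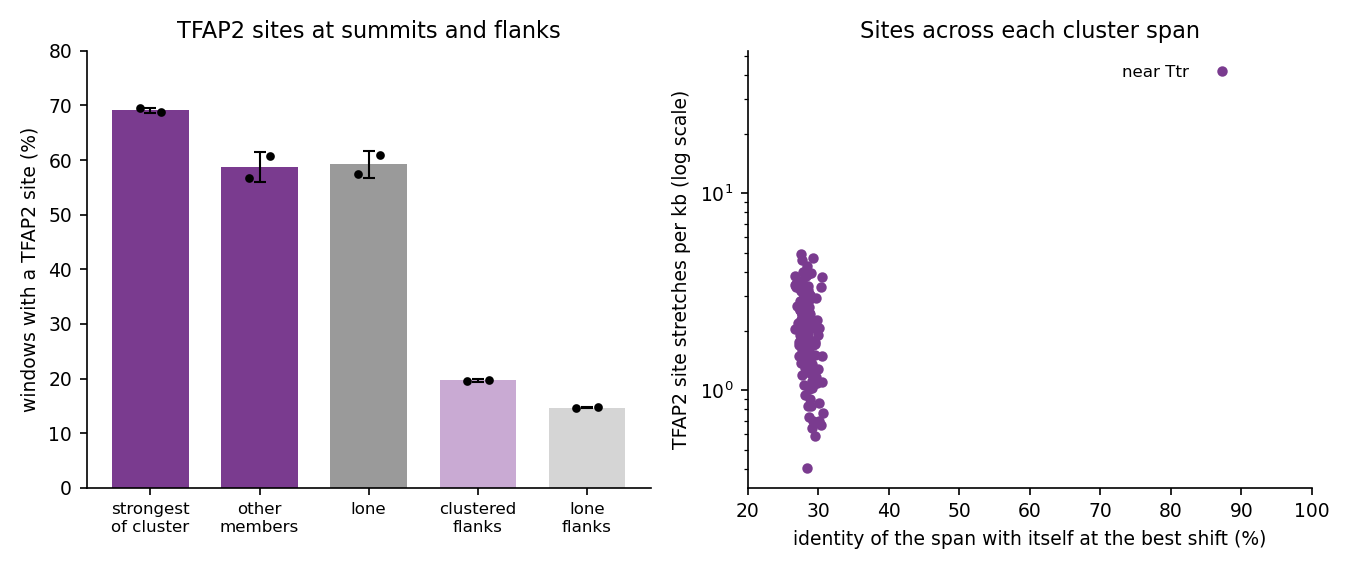
Left, percentage of windows (50 bp to each side of the centre) with a TFAP2 site at the summits of the strongest and the other members of clusters and of lone peaks, and 400 bp to each side (flanks); bars are means, error bars SD and points the 2 replicates. Right, TFAP2 site stretches per kb (log scale) against the identity of each cluster span with itself at the best shift of 10 to 200 bp; the cluster near Ttr is at 87.2% and 41.9 per kb, and the other 143 are at or below 30.6% and 4.92 per kb.

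1 cluster differed from all others in its sequence. It held the most summits, 12 in 12.8 kb on chromosome 18 near Ttr, the transthyretin gene, and was the second tightest of all. Its DNA was a tandem repeat. Shifted by 22 bp, 87.2% of its bases matched themselves, against a median of 28.3% and a maximum of 30.6% over the other 143 clusters at their best shift, and it held 535 TFAP2 stretches, 41.9 per kb against a median of 2.04. All 12 summits had a site. Replicate 1 split the region into 12 peaks of 3.52 to 9.07, and replicate 2 into 7 peaks, of which 6 were shared, at 4.27 to 9.40, and the widest was 5957 bp long. The summed enrichment was accordingly 66.0 and 39.8. How reads were placed within the repeat was not tested. Self-identity of at least 60% was found at 12 of the 828 clustered summits (1.45%), all in this cluster, and at 7 of the 8866 lone ones (0.0790%). It was also found at 13 of the 3700 summits in chains of 2 (0.351%) and 6 of the 2403 in chains of 3 or 4 (0.250%). Without this cluster, 816 clustered peaks remained, the log2 ratio of enrichment to lone peaks was -0.15, and the difference of the site share was 0.717 percentage points.

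Protein-coding genes were scored in 3 ways against all 21418 on the 19 chromosomes. The body of 136 genes (0.635%) overlapped a cluster, the TSS of 96 (0.448%) lay inside one, and 611 (2.85%) had a cluster within 100 kb of a TSS. Of the clusters, 31 overlapped no gene body, 95 overlapped 1, and 5 overlapped 3 or more. Clusters held 29.8 protein-coding genes with a TSS per Mb, against 8.66 genes per Mb of the chromosomes. The 2 densities are not alike, since a gene counts for the first if any of its transcript starts lies in a span. Spans also begin and end at peaks, and 27.7% of lone peaks lay in promoters too. The density around other shared peaks was not computed, so the excess is not shown to be particular to clusters. The overlapped genes were long, with a median of 43.4 kb against 15.5 kb for all. Long genes offer more room for a cluster, and the part of gene length in the count of genes was not tested. Promoter summits were in the majority in 34 clusters, made up all of 5, and were absent from 43, and 50 clusters lay inside a single gene.

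Regulators of the neural crest and melanocyte lineage were overlapped at 4 of the 33 listed genes, or 12.1% (95% Clopper-Pearson interval 3.40 to 28.2, counting error only), beside 0.635% of all genes. The gene list was compiled with earlier results of these data known, so the count is a description. Sox10, a driver of melanocyte fate, had 7 summits around it over 24.0 kb, and none of them lay inside the gene. Upstream of its start were 5, of which 2 were in its promoter and 3 in introns of the non-coding neighbour Gm10863, and the other 2 lay past its end. The strongest, at -935 bp from the TSS, was at 9.30 and 8.24, and the weakest at 3.02 and 2.44. Id2 and Id3, inhibitors of basic helix-loop-helix factors, each had 5 summits, within 6.50 and 7.64 kb. Their strongest peaks were similar, 8.57 and 8.30 at Id2 and 8.77 and 7.88 at Id3, and both lay upstream, at -1283 and -2993 bp. Ets1, a transcription factor of the ETS family, had 5 summits inside the gene, 4 of them intronic and 1 at -221 bp from an internal transcript start. There an intronic peak, the first of the cluster, was the strongest, at 16.5 and 13.4, and the peak at the internal start the weakest, at 3.14 and 2.58. Tbx2, a T-box repressor, was 65.2 kb from its nearest cluster.

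Of the 16 AP-1 and TEAD genes, Junb was overlapped. Its cluster of 8 summits spanned 19.6 kb and the genes Rnaseh2a, Prdx2 and Junb, encoding a subunit of RNase H2, a peroxiredoxin and an AP-1 subunit. The summit at the Junb start (-33 bp) was among the weakest, at 2.40 and 2.86, while those at -1128 and -2509 bp reached 8.42 and 7.74, and 16.9 and 13.2. Of the 19 MAPK feedback genes, the immediate early gene Ier2 was overlapped, by 5 summits with values of 3.51 to 8.02. Both are single genes of their lists (6.25% and 5.26%), with intervals of 0.158 to 30.2% and 0.133 to 26.0% that reach below the 0.635% of all genes.

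Pigment genes were not among those with clusters. None of the 28 listed genes on these chromosomes, the melanin enzymes Tyr, Tyrp1 and Dct, the melanosome protein Pmel and the receptors Mc1r, Kit and Ednrb included, was overlapped, and 0 of 28 allows a share of up to 12.3% (Clopper-Pearson), above the 0.635% of all genes, so a difference from other genes was not detectable. Tpcn2, a channel of endolysosomes and melanosomes, was the one member with a cluster within 100 kb, at 61.5 kb. Of the 28 genes, 26 had at least 1 shared peak within 100 kb of a TSS, beside 71.1% of all genes, and 8 had 5 or more, beside 17.3% of all. The median was 3.5 peaks and the maximum 9, with a median of 2 over all genes. Mlph, which encodes melanophilin, a linker of melanosomes to myosin, had 7 such peaks, and its nearest cluster was 1806 kb away. Mc1r had 3, and its nearest cluster was 3116 kb away. In addition, 0 of 28 adhesion and matrix genes, 0 of 29 genes of other cell types, 0 of 1106 olfactory receptor genes and 0 of 74 cytosolic ribosomal protein genes were overlapped. Within 100 kb of a cluster there were 3 of the genes of other cell types (Krt8, Krt18 and Hba-a1, 10.3% of the list), 1 olfactory receptor gene (0.0904%) and 6 ribosomal protein genes (8.11%), beside 2.85% of all genes.

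Counted by gene, and chosen after their values were seen, the bodies with the most clustered summits were Slc35f1 with 11 of its 20 shared summits, Nrp2 with 10 of 13, and Utrn, the gene of utrophin, with 10 of 14. Plec, Ptprj and Zmiz1, the last a transcriptional co-activator, each had 9, and Pxn, which encodes the focal adhesion protein paxillin, and Tom1l2 had 8. All shared summits of Plec and of Pxn were clustered, 9 of 9 and 8 of 8, while for Tom1l2 it was 8 of 10. Per kb of gene, Pxn had 0.162, Plec 0.146 and Utrn 0.0205. These genes differ about 10-fold in length, from 49.3 kb for Pxn to 487.2 kb for Utrn.

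The counting side was then exchanged. With replicate 2 summits in place of replicate 1, 908 peaks formed 158 clusters, and 142 of the 144 clusters (98.6%) overlapped one of these. The other 2, at Rnf149 and near Cdkn2b, each had 5 replicate 1 summits but only 4 replicate 2 partners. Both sides use the overlaps that made a peak shared, so this recovery, the summit distances and the correlation below are partly set by the selection. Within the cluster spans replicate 1 had 868 peaks, 40 of them not shared, and replicate 2 had 878, 42 of them not shared. The summits of the replicates were 27 bp apart in the median at clustered peaks and 23 bp at lone ones, and lay within 100 bp of each other at 90.9% and 95.1%. Across peaks the enrichment of the replicates had a Spearman correlation of 0.841 in clusters (828 peaks) and 0.835 for lone peaks (8866), which are peaks of the same libraries and not independent replicates. In 22 cases clustered peaks shared their replicate 2 partner with another, in 8 clusters, so that 815 distinct replicate 2 peaks stood for the 828.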

How the data were processed

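TFAP2A ChIP-seq of melan-a cells was analysed from 2 peak lists, 1 per replicate and not pooled. The input library was not used here. The submitters' processing notes name BWA, MACS 1.4.2 and the build mm9, with no role given. The lists have q-value and summit columns in the layout of a later MACS release, and which release wrote them was not settled from the sources used here. In the deposited lists the authors gave each peak a fold enrichment (a ratio over background), −log10 p-value and q-value columns and a score, a rounded-down multiple of the −log10 p-value that was not used on its own. Such values depend on the depth of the libraries and of the input, which is not given in the sources used here, and a broad region can be split into several peaks.

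Shared peaks (overlap of at least 1 bp, 337 of them outside chromosomes 1 to 19 and not analysed) were chained by replicate 1 summits. Replicate 2 values came from the replicate 2 peak with the largest overlap. Genes and TSSs were from GENCODE vM1 and sequence from the mm9 reference. Locations were set over all annotated transcripts, non-coding ones included. A class value was computed per replicate, averaged (SD, n = 2) and compared by a two-sided exact permutation test, whose smallest p is 0.333. Peaks are not replicates. Shares of gene lists have 95% Clopper-Pearson intervals. The clusters named were the 12 with the most summits (ties broken by summed enrichment), the 6 with the highest summed enrichment, the 5 with the smallest mean gap and those overlapping a listed gene, each with its strongest peak. The members and the gene lists were chosen with earlier results of these data known. Gpr143, Atp7a, Tfe3 and L1cam, of the lists, lie outside chromosomes 1 to 19. Python 3.11.15, numpy 2.4.6, scipy 1.17.1, pandas 2.3.3, pysam 0.24.0 and samtools 1.23.1 were used, and chaining, overlap and site counting were tested on simulated data.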

Additional observations from a re-analysis of the deposited data

How the results depend on the processing

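The number of clustered peaks depended on the rule. It was 125 with summits at most 5 kb apart, 2415 with 25 kb, 1644 with at least 4 summits, 28 when the lower 50% of each list by enrichment was dropped, and 1293 to 1725 when 1 replicate was left out. The overlapped protein-coding genes numbered 19, 482, 301 and 3 under the first 4 of these, and 210 to 254 with a replicate left out. A reciprocal overlap of 50%, replicate 2 counting and summits within 1 kb counted as 1 gave 683, 908 and 651 peaks. Of the 23 named clusters, these 3 alternatives recovered 17, 22 and 16. Only 11 were recovered with summits at most 5 kb apart and 3 with the stronger 50% of peaks. With 25 kb, at least 4 summits or 1 replicate left out it was 22 or 23. The log2 enrichment of clusters against lone peaks turned with −log10 p (0.13), and with the stronger 50% of peaks it was -0.05 ± 0.094, less than the spread between replicates (exact permutation p = 1). It was -0.10 without replicate 1 and -0.16 without replicate 2, and negative under the other alternatives. The promoter difference turned with 25 kb (-0.341 percentage points), the stronger 50% of peaks (-13.7) and a promoter of 1 kb to each side (-2.99). It was 0.847 without replicate 1 against 4.82 without replicate 2, and 1.62 with summits within 1 kb counted as 1, against 13.0 with 5 kb. The site difference turned with 25 kb (-0.604), at least 4 summits (-0.0853), less the flanks (-3.68) and without replicate 1 (-1.09, against 0.364 without replicate 2), and ran from 0.412 (replicate 2 counting) to 14.1 (the stronger 50%) under the others. Without the tandem repeat cluster, an alternative added after seeing the data, 816 peaks and 136 genes were counted and these 3 differences were -0.15, 4.02 and 0.717. The cause of these shifts was not tested beyond the fewer or more peaks that each rule admits.

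Clustered and lone values come from the same 2 libraries. With the replicate block, an alternative added after seeing the data in which the classes are compared within each library, the differences of log2 enrichment, promoter share and site share keep their values (-0.15, 3.56 and 1.30) and their direction in both replicates, and the exact sign-flip p is 0.5 for each, the smallest that 2 pairs allow. No pairing between groups of samples was possible because there is a single ChIP group. Without the block no p can fall below 0.333. Depth is unknown.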
